A study of Homo sapiens with 12 samples.

Results

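The ErbB family of receptor tyrosine kinases and the growth factors that bind it were examined in triple-negative breast cancer (TNBC) cells after knockdown of NONO or PKM2. The 10 genes were chosen by name: the receptor genes EGFR, ERBB2 and ERBB3, the EGFR ligand genes AREG, EREG, HBEGF, TGFA, BTC and EPGN, and the neuregulin gene NRG1. All 10 were found in both deposited gene tables, which share 60558 gene identifiers. MDA-MB-231, a mesenchymal-like TNBC cell line, was the source of all 12 RNA-seq libraries. There were 3 libraries of cells with NONO knocked down (NONO-KD), 3 with PKM2 knocked down (PKM2-KD), and a separate negative control (NC) group of 3 libraries for each knockdown. The series design text names siRNA as the knockdown reagent. The study's methods describe transient siRNA transfection and list more than 1 siRNA for each target, but which of them was used for these libraries, and for how long, is not stated there or in the labels. Nothing says whether the 3 libraries of a group came from separate cultures. P-values therefore measure the spread between these libraries, which may be technical, and they speak of 1 cell line. NONO is a nuclear RNA- and DNA-binding protein of paraspeckles, and PKM2 is a splice form of pyruvate kinase encoded by PKM.

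EGFR family receptors sit in the plasma membrane and dimerize when a ligand binds their outer part, which switches on the tyrosine kinase inside the cell. ERBB2 has no known direct ligand and works as the preferred partner of the others, while ERBB3 binds neuregulins but has little kinase activity of its own. The ligands are made as membrane-anchored precursors and are released by sheddases such as ADAM10 and ADAM17. EGFR is often abundant in TNBC, which by definition lacks hormone receptors and ERBB2 (HER2) amplification.

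Of the 6 EGFR ligand genes, 4 lie in one cluster on chromosome 4 in the order EPGN, EREG, AREG and BTC, within 486 kb. In GENCODE 29 (GRCh38) EPGN is annotated at chr4:74308473-74315307, EREG at chr4:74365143-74388751 and AREG at chr4:74445134-74455009, all on the plus strand, and BTC at chr4:74744759-74794686 on the minus strand. HBEGF lies at chr5:140332843-140346631 and TGFA at chr2:70447280-70554193, both on the minus strand. The receptor genes are EGFR at chr7:55019021-55211628, ERBB2 at chr17:39687914-39730426 and ERBB3 at chr12:56076799-56103505, all on the plus strand. All 10 are protein coding, and the values below are sums over the whole gene.

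The 250 bases before the RefSeq start (GRCh38.p14, 5′ to 3′ on the gene's strand) are shown for the neighbours AREG and EREG, whose counts were higher in PKM2-KD libraries, and for HBEGF, whose counts were lower. Capitals mark matches, on either strand, to the cAMP response element TGACGTCA, the AP-1 site TGAGTCA, the TATA box TATAAA or the GC box GGGCGG, 2 of which overlap in HBEGF.
AREG, chr4:74444886-74445135, plus strand: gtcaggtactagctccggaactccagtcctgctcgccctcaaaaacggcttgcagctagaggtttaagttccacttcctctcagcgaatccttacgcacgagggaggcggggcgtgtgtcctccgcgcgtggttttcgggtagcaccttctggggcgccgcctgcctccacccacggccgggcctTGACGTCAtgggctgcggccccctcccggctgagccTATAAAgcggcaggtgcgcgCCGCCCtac
EREG, chr4:74364895-74365144, plus strand: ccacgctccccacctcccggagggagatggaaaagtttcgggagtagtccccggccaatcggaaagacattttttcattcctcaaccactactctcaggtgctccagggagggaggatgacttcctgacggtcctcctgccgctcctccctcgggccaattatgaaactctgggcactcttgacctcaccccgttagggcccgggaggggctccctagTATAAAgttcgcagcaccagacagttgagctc
HBEGF, chr5:140346604-140346853, minus strand: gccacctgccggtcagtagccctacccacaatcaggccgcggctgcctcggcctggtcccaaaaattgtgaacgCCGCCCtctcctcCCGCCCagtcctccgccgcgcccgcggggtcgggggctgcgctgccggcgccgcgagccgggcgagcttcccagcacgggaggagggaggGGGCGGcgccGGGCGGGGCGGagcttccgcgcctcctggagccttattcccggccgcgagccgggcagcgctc

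The AREG window held the cAMP response element 65 bases before the start, the TATA box 29 bases before it and 1 GC box. The EREG window held a TATA box 32 bases before the start, and EPGN, the next gene of the cluster, held one at 29 bases. HBEGF had 5 GC boxes and no TATA box. Of all 35116 RefSeq promoter windows of this length, 1.65% held the cAMP response element, 4.2% the AP-1 site, 10.7% the TATA box and 42.6% the GC box. The promoter table had entries for 8 of the 10 genes, and ERBB3 and NRG1 are only named here. These matches describe letters and not bound sites.

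Library depth ran from 19861762 to 28455268 estimated counts. The targeted gene checked the labels: NONO stood at 391, 358 and 369 CPM (counts scaled to library size by the trimmed mean of M values, TMM) in its NC libraries and at 61.8, 64.3 and 61.9 in NONO-KD libraries, and PKM, counted over all its splice forms, at 2280, 2210 and 2320 in NC and 218, 228 and 234 in PKM2-KD libraries. The cells carried many markers of their label. VIM stood at 3291.25 to 4466.33 TPM (counts scaled to both transcript length and library size) and CD44 at 275.49 to 329.6 TPM. ESR1 and PGR had at most 11 counts, PTPRC at most 5 and CDH1 at most 2 in any library. ERBB2 and EPCAM, also listed as low, were detected, at 13.68 to 35.22 and 1.29 to 3.73 TPM. The keratin genes KRT8, KRT18 and KRT19, listed as high, stood at 20.25 to 399.33 TPM. After PKM2 knockdown KRT8 and KRT18 rose (0.41 and 0.9 on the log2 scale) and KRT19 fell (-1.21), while KRT8 fell after NONO knockdown (-0.37). Of the 12 markers besides ERBB2, 8 were tested in each experiment. Of these NONO knockdown raised 2 and lowered 2 and PKM2 knockdown raised 4 and lowered 2 (of all genes 33.4% and 68.4% were called). Among markers of other cells, PECAM1 stood at 0.18 to 2.31 TPM and rose after NONO knockdown (0.86 on the log2 scale, adjusted p = 0.0322 in edgeR). Its counts were 18, 40 and 34 in NC and 61, 49 and 49 in NONO-KD libraries, lowest in NC replicate 1. COL1A1 stood at 2.17 to 9.93 TPM, fell after NONO knockdown (-0.72, adjusted p = 0.00226) and rose after PKM2 knockdown (0.34, adjusted p = 0.00502). Their part in the results was not tested. NC replicate 1 of the NONO experiment and PKM2-KD replicate 3 stood farther from their replicates than the others did, with a chi-square per degree of freedom of 8.94 to 13.4 against 2.38 to 4.41 between the remaining pairs. For several genes the value without 1 of them is given below. Some genes that stood apart in NC replicate 1 of the NONO experiment, or whose call changed without it, have no such value. Among these are PECAM1 and EGR1, the latter at 7.93 CPM there against 43.9 and 36.4 in the other NC libraries.

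In TPM, a scale on which genes of different length can be compared, EGFR was the most abundant of the 10 genes in every group. In NC cells of the NONO experiment its level was 76 ± 1.94 TPM (SD, n = 3), followed by HBEGF at 37.2 ± 0.956, NRG1 at 32.5 ± 1.53 and ERBB2 at 30.8 ± 3.97. NRG1 and ERBB2 overlapped in range. A wide gap separated these from AREG at 3.61 ± 0.495, ERBB3 at 3.43 ± 0.515 and TGFA at 2.55 ± 0.332 TPM, of which AREG and ERBB3 overlapped. BTC, EREG and EPGN were barely detected, at 0.24 ± 0.168, 0.107 ± 0.0321 and 0.0767 ± 0.0451 TPM, and their ranges overlapped. The NC cells of the PKM2 experiment had the same order, although TGFA overlapped with ERBB3 there and NRG1 did not overlap with ERBB2. In PKM2-KD cells TGFA at 7.18 ± 1.73 TPM moved above ERBB3 at 1.92 ± 0.872 and above AREG at 6.23 ± 0.551, with which it overlapped. HBEGF at 20.9 ± 0.693 overlapped with NRG1 at 20.4 ± 2 there. In NONO-KD cells ERBB2 at 26.2 ± 1.17 TPM ranked just above NRG1 at 26.1 ± 2.8, with overlap. After both knockdowns EREG ranked above BTC, and AREG no longer overlapped with ERBB3.

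**Figure D1:**
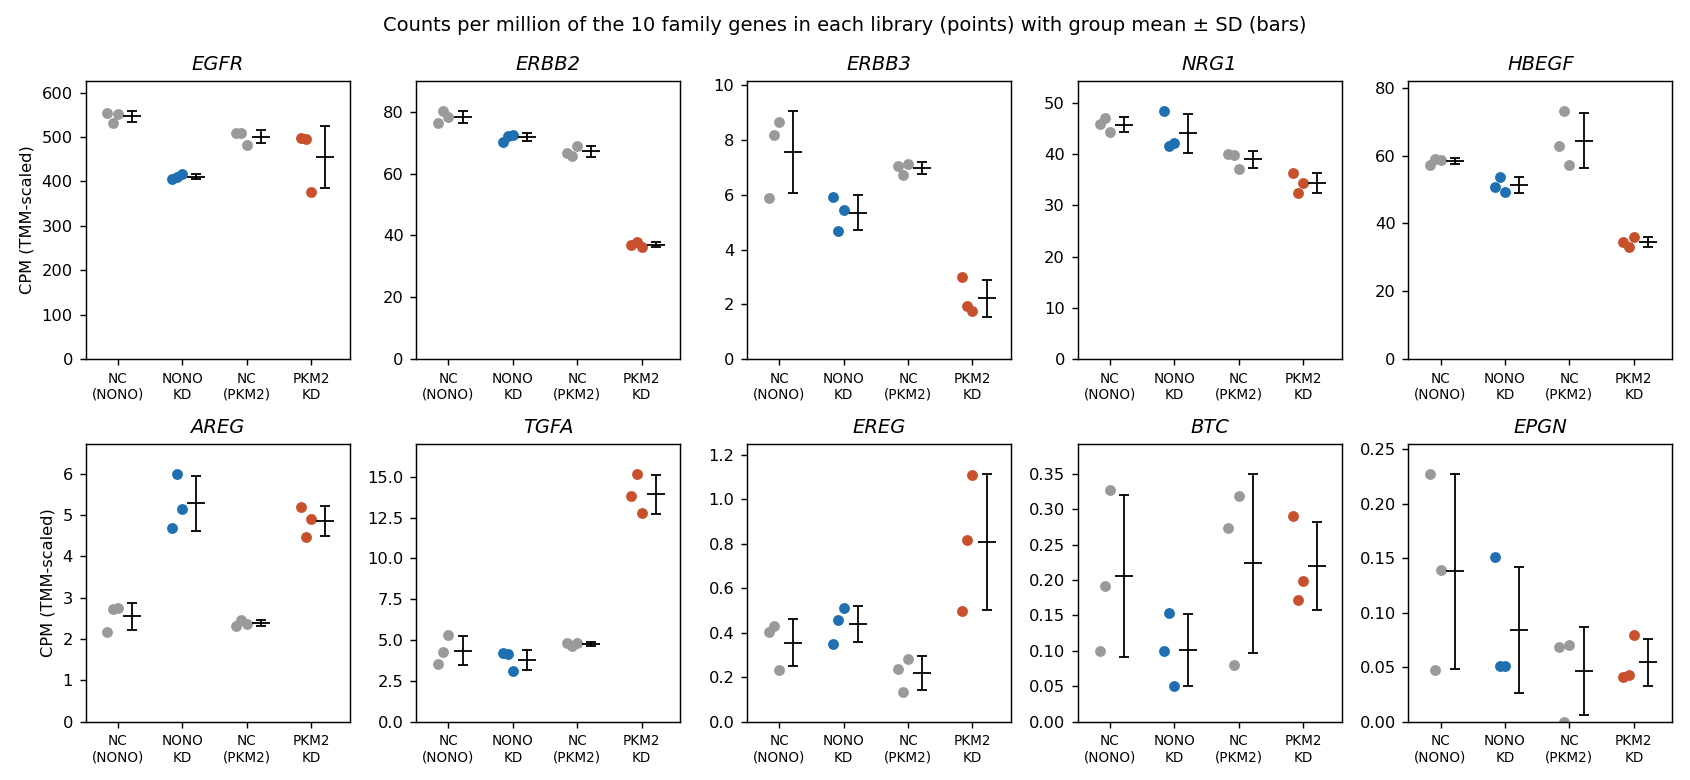
TMM-scaled CPM of each of the 10 genes (vertical axis, linear from 0, own scale per panel) in the NC and knockdown libraries of both experiments; points are libraries and bars are the group mean ± SD of 3. AREG libraries of both knockdowns lie above their NC libraries, TGFA and EREG do so after PKM2 knockdown, and ERBB2, ERBB3 and HBEGF lie lowest in PKM2-KD libraries.

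The counts of each knockdown were set against those of the matching NC libraries in edgeR's quasi-likelihood test. P-values were adjusted over all genes tested by the method of Benjamini and Hochberg, with a call at an adjusted p below 0.05. After NONO knockdown 7 of the 10 genes passed the filter on low counts, and 4 of these were called: AREG rose, and EGFR, ERBB3 and HBEGF fell. Of all 14832 genes tested in that comparison 33.4% were called, 16.2% raised and 17.2% lowered. After PKM2 knockdown 8 genes passed the filter and 7 were called: AREG, EREG and TGFA rose, and ERBB2, ERBB3, HBEGF and NRG1 fell. EREG passed the filter only through the libraries in which it was high, and without it 6 of 7 were called. Here 68.4% of the 15524 genes tested were called, 33.6% raised and 34.7% lowered, so a call by itself sets the family little apart from other genes. The median log2 change of the genes that were tested was -0.19 after NONO knockdown and, with EREG, -0.16 after PKM2 knockdown, against -0.01 over all genes tested in either comparison. Libraries of bulk RNA cannot tell fewer cells of a kind from less RNA per cell.

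EGFR, the main receptor of these cells, fell after NONO knockdown. It stood at 555, 532 and 552 CPM in NC libraries and 406, 409 and 416 CPM in NONO-KD libraries, so the groups were well apart. The log2 change was -0.41 (SE 0.04, 95% interval -0.5 to -0.33, 0.751-fold, adjusted p = 1.42e-05). After PKM2 knockdown EGFR stood at 509, 510 and 483 CPM in NC and at 497, 495 and 375 CPM in knockdown libraries. PKM2-KD replicate 3 was low and the other 2 lay within the NC range. The log2 change was -0.14 (SE 0.09, 95% interval -0.33 to 0.06, adjusted p = 0.198), and it was -0.01 without PKM2-KD replicate 3 (adjusted p = 0.867). In TPM the knockdown libraries, at 69.85, 69.18 and 50.66, all lay below the NC libraries at 75.17, 76.65 and 72.43, and limma on log2(TPM + 1) gave -0.25 (adjusted p = 0.108).

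ERBB2, the co-receptor without a known ligand, fell after PKM2 knockdown. Its counts stood at 66.8, 65.7 and 69 CPM in the NC libraries of the PKM2 experiment and 36.8, 37.9 and 36.3 CPM after PKM2 knockdown, 2 narrow and distant groups. The fall was -0.86 on the log2 scale (SE 0.05, 95% interval -0.98 to -0.74, 0.55-fold, adjusted p = 6.12e-08). After NONO knockdown ERBB2 stood at 70.3, 72.3 and 72.6 CPM against 76.4, 80.3 and 78.3 CPM in NC. These ranges did not overlap either, but the log2 change of -0.13 (95% interval -0.23 to -0.03) had an adjusted p of 0.0516. In TPM these groups overlapped. Without NC replicate 1 the value was -0.14 (adjusted p = 0.0223). ERBB2 shares 571 exonic bases with MIEN1 and 194 with PGAP3, both on the other strand, and since the strand setting of the counting is not given, reads there cannot be assigned with certainty.

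ERBB3, the neuregulin receptor with little kinase activity, was low in all libraries and lowest after PKM2 knockdown. It had 207, 169 and 202 counts in NC libraries and 72.01, 45 and 44 counts in PKM2-KD libraries, or 7.06, 6.71 and 7.13 CPM against 2.98, 1.93 and 1.74. The groups did not overlap, and the log2 change was -1.65 (SE 0.19, 95% interval -2.07 to -1.23, 0.319-fold, adjusted p = 1.08e-05). After NONO knockdown the counts were 119, 92 and 107 against 117, 172.04 and 185 in NC, so NC replicate 1 lay among the knockdown libraries. The log2 change was -0.5 (SE 0.17, 95% interval -0.87 to -0.13, adjusted p = 0.0389). This call was not kept in 5 of the 6 fits that left out 1 library, where adjusted p reached 0.157, and not by DESeq2 (adjusted p = 0.0643); without NC replicate 1 it was -0.64 (adjusted p = 0.00131). On log2(TPM + 1) limma gave -0.18 (adjusted p = 0.607).

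The fall of ERBB3 depended on the unit. In TPM the gene stood at 3.02, 3.4 and 2.92 in NC libraries and at 2.91, 1.56 and 1.28 in PKM2-KD libraries, and PKM2-KD replicate 1 nearly reached the NC range. On log2(TPM + 1) limma gave a change of -0.53 with an adjusted p of 0.0699. The ratio of count to TPM follows the average length of the transcripts to which the reads of a gene were assigned. For ERBB3 it stood at 103, 89.4 and 108% of its NC mean in the NC libraries and at 43.4, 51.6 and 53.1% in the PKM2-KD libraries, after scaling by the median gene of each library. The shift was -1.02 on the log2 scale, without overlap between the groups, in libraries with as few as 44 counts for the gene. After NONO knockdown the ratio spread from 65.2 to 107% against 79.3 to 134% in NC, with overlap. Which transcripts changed was not tested, since the tables give 1 value per gene.

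NRG1, the neuregulin that binds ERBB3, was abundant and changed little in counts. It stood at 40.1, 39.8 and 37.1 CPM in NC and 36.4, 32.5 and 34.4 CPM in PKM2-KD libraries, which did not overlap. The log2 change was -0.18 (SE 0.06, 95% interval -0.32 to -0.04, 0.884-fold, adjusted p = 0.0292); DESeq2 gave -0.16 (adjusted p = 0.112), and 3 of the 6 fits without 1 library did not call it. In TPM the same libraries stood at 32.66, 30.58 and 27.38 against 22.75, 19.17 and 19.41, a log2 change of -0.56, and the ratio of count to TPM rose from 94.1, 102 and 104% to 118, 122 and 120% of the NC mean. After NONO knockdown NRG1 stood at 48.5, 41.7 and 42.2 CPM against 46, 47.1 and 44.3 CPM in NC, with overlapping ranges and a log2 change of -0.05 (95% interval -0.2 to 0.1, adjusted p = 0.594). Its TPM ranges in that experiment did not overlap, at 27.94, 22.84 and 27.41 against 33.6, 30.77 and 33.21. On log2(TPM + 1) limma gave -0.31 (adjusted p = 0.0497).

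AREG, which encodes the EGFR ligand amphiregulin, was the one gene of the family raised after both knockdowns. Its counts were 43, 57 and 59 in the NC libraries of the NONO experiment and 94, 118 and 101 after NONO knockdown, or 2.16, 2.72 and 2.76 CPM against 4.69, 6 and 5.14. Its counts were 68, 62 and 67 in the NC libraries of the PKM2 experiment and 125, 104 and 124 after PKM2 knockdown, or 2.32, 2.46 and 2.36 CPM against 5.18, 4.47 and 4.91. The groups did not overlap in either experiment, although the counts are low. The log2 change was 1.05 after NONO knockdown (SE 0.18, 95% interval 0.66 to 1.44, 2.07-fold, adjusted p = 0.00102) and 1.03 after PKM2 knockdown (SE 0.16, 95% interval 0.68 to 1.38, 2.04-fold, adjusted p = 0.00012). Without NC replicate 1 of the NONO experiment, in which AREG was lowest, the change after NONO knockdown was 0.95 (adjusted p = 0.000472 in edgeR). Among all signed changes the AREG value stood at percentile 99.3 in the NONO comparison and at percentile 93.2 in the PKM2 comparison. Its ratio of count to TPM stayed between 99.4 and 100% of the NC mean in all 6 knockdown libraries. The deposited values of the NONO experiment held no entry for the near-identical copy AREGB, which was not looked for in those of the PKM2 experiment.

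TGFA, which encodes transforming growth factor alpha, rose after PKM2 knockdown. It stood at 4.81, 4.65 and 4.83 CPM in NC libraries and at 13.8, 15.2 and 12.8 CPM in PKM2-KD libraries. The log2 change was 1.55 (SE 0.11, 95% interval 1.31 to 1.79, 2.92-fold, adjusted p = 1.55e-07), a value at percentile 97.5 of all signed changes. In TPM the log2 change was smaller, at 1.23, and limma on log2(TPM + 1) gave 1.01 (adjusted p = 0.0029). The ratio of count to TPM stood at 115, 107 and 81% of the NC mean in NC and at 111, 101 and 131% in PKM2-KD libraries, with overlap. After NONO knockdown TGFA stood at 4.19, 4.12 and 3.1 CPM against 3.51, 4.24 and 5.33 in NC. The groups overlapped and the log2 change was -0.2 (95% interval -0.63 to 0.23, adjusted p = 0.484).

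HBEGF, the heparin-binding ligand and the most abundant EGFR ligand transcript here, went the other way. It stood at 62.8, 73.2 and 57.1 CPM in the NC libraries of the PKM2 experiment and 34.6, 33.1 and 35.9 CPM after PKM2 knockdown. The groups were far apart, with a log2 change of -0.9 (SE 0.09, 95% interval -1.08 to -0.71, 0.537-fold, adjusted p = 1.97e-06). After NONO knockdown it stood at 50.7, 53.8 and 49.4 CPM against 57.3, 58.9 and 58.8 in NC, without overlap. That change was small, -0.19 (SE 0.05, 95% interval -0.3 to -0.07, 0.879-fold, adjusted p = 0.0195); DESeq2 did not call it (adjusted p = 0.0598), nor did 4 of the 6 fits that left out 1 library.

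EREG, which encodes epiregulin, was scarce. It had 7, 3.36 and 8 counts in the NC libraries and 12, 19 and 27.98 counts in the PKM2-KD libraries. The groups did not overlap, and the log2 change was 1.88 (SE 0.46, 95% interval 0.87 to 2.9, 3.68-fold, adjusted p = 0.00339). The gene passed the filter only through the knockdown libraries, so it had to differ to be tested, and its call adds nothing to the count above. In the NONO experiment it had 8, 9 and 5.01 counts in NC and 7, 9.02 and 10.01 in NONO-KD libraries and was not tested. A fit without the filter gave 0.31 (SE 0.6, adjusted p = 0.786).

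BTC (betacellulin) had 1 to 9 counts and EPGN (epigen) 0 to 4.52 counts in the 12 libraries, and neither passed the filter in either experiment. BTC gave a log2 change of -0.03 (SE 0.74) after PKM2 knockdown in a fit without the filter. No fold is given for BTC after NONO knockdown, where its mean was 2 counts, or for EPGN, whose mean was below the floor of 3 counts in all 4 groups. A change in either gene was not detectable at this depth.

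**Figure D2:**
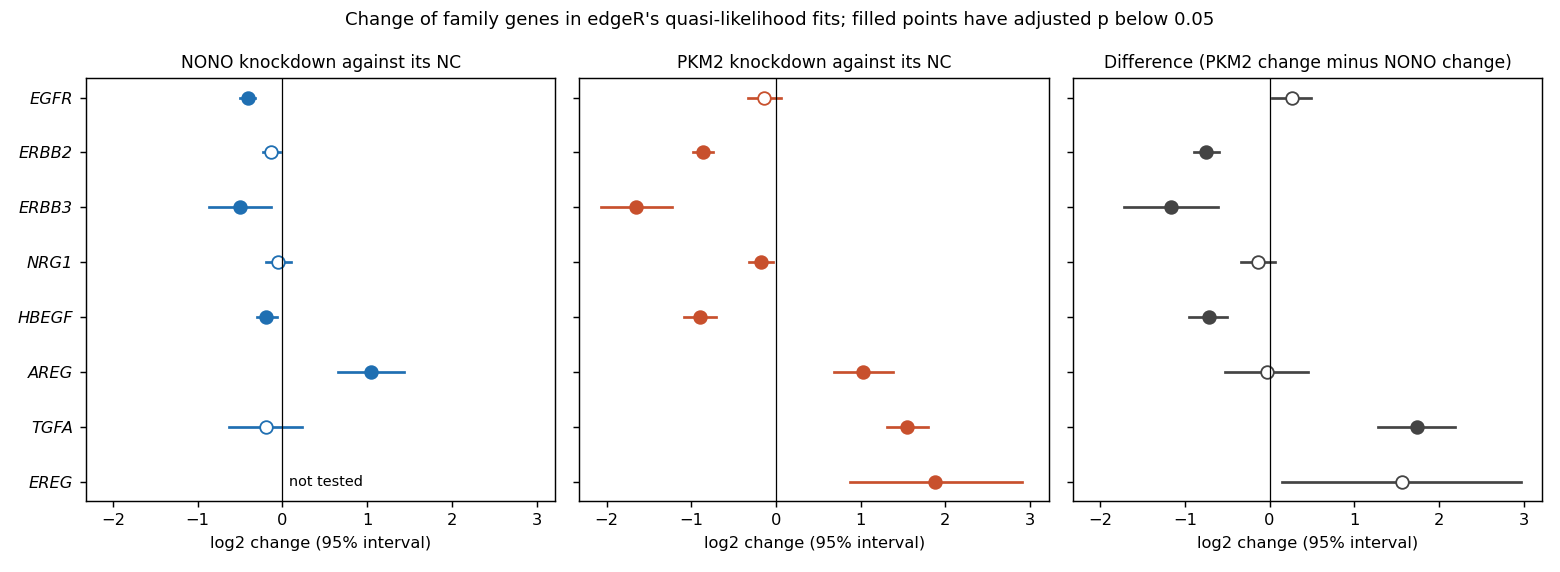
Log2 change (horizontal axis, the same in all panels) with its 95% interval for the 8 genes tested in at least 1 comparison, after NONO knockdown, after PKM2 knockdown, and for the difference of the 2 changes; filled points have an adjusted p below 0.05 in edgeR's quasi-likelihood test. AREG lies at 1.05 and 1.03 in the first 2 panels and at -0.03 in the last, while TGFA lies at -0.2, 1.55 and 1.74.

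The 2 knockdowns were then set against each other as the difference of their changes, in 1 fit over all 12 libraries with each knockdown read against its own NC group. Of 15995 genes tested 53.1% were called in this fit, and of the 8 family genes tested 4 were called. The 8 include EREG, which entered the fit only through the PKM2-KD libraries in which it was high. TGFA changed by 1.74 more on the log2 scale after PKM2 than after NONO knockdown (95% interval 1.28 to 2.19, adjusted p = 3.24e-06). ERBB2, ERBB3 and HBEGF changed by -0.75 (adjusted p = 7.74e-08), -1.16 (adjusted p = 0.00123) and -0.72 (adjusted p = 1.99e-05), lower after PKM2 knockdown in all 3. For ERBB3 limma on log2(TPM + 1) gave -0.36 (adjusted p = 0.393). The AREG difference was -0.03 with an interval of -0.52 to 0.46 (adjusted p = 0.921), which leaves room for changes that differ by as much as that. NRG1 gave -0.14 (95% interval -0.34 to 0.07, adjusted p = 0.246) and EREG gave 1.56 (95% interval 0.15 to 2.97, adjusted p = 0.0585).

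EGFR was the one receptor with the lower value after NONO knockdown. The difference was 0.26 (95% interval 0.03 to 0.49, adjusted p = 0.0502). Without PKM2-KD replicate 3 it was 0.39 (adjusted p = 1.31e-05), and without NC replicate 1 of the NONO experiment it was 0.26 (adjusted p = 0.0644). Knockdown and experiment cannot be told apart beyond the use of separate NC groups.

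As a description of composition, the TPM of the 6 EGFR ligands were added up in each library. The sum was 49.2 ± 5.48 in the NC and 34.7 ± 1.97 in the PKM2-KD libraries (SD, n = 3). HBEGF made up 87.1, 88.5 and 83.3% of it in NC and 59.7, 57.6 and 63.7% in PKM2-KD libraries. The TGFA share went from 5.5, 4.98 and 8.26% to 20.4, 24.9 and 16.4%, and the AREG share from 6.77, 6.3 and 7.26% to 18.9, 16.5 and 18.4%. None of these ranges overlapped. In the NONO experiment the sum was 43.8 ± 1.57 in NC and 40.9 ± 2.48 in NONO-KD libraries, with overlap. There the AREG share went from 7.24, 8.67 and 8.75% to 16.2, 18.5 and 17.7% and the HBEGF share from 86, 84.7 and 84.3% to 79.1, 75.5 and 77.4%, while the TGFA share overlapped, at 4.01 to 5.44% after and 5.17 to 6.19% before. Among the 3 receptors EGFR made up 71.5 ± 0.624% of the summed TPM in NC and 79.3 ± 1.85% in PKM2-KD libraries, against 69 ± 2.01% and 65.8 ± 2.03% in the NONO experiment.

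The other receptor and ligand genes of the family, ERBB4, EGF, NRG2, NRG3 and NRG4, had few counts in these cells. None of the 5 was tested in the NONO experiment. NRG2 was the one tested after PKM2 knockdown, having passed the filter through the NC libraries alone, with 21, 17 and 12 counts there and 1, 1 and 0 in PKM2-KD libraries. It could be tested only because it was high in NC, so its call as lowered supports nothing. ERBB4 had 10, 11 and 11 counts in those NC libraries and 0, 3 and 0 in the knockdown libraries.

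Among genes that release the ligands from the membrane, ADAM10 and ADAM17 fell after NONO knockdown and RHBDF2 fell after PKM2 knockdown. Of 8 shedding genes, all tested, NONO knockdown raised 1 and lowered 2, a share close to the 33.4% of all genes: ADAM10 by -0.74 (adjusted p = 1.06e-06) and ADAM17 by -0.41 (adjusted p = 0.000312), the main sheddases of the family, fell, and ADAM9 rose by 0.15 (adjusted p = 0.0105). PKM2 knockdown raised 3 and lowered 2 of the 8, where 68.4% of all genes were called. RHBDF2, the inactive rhomboid that guides ADAM17 to the cell surface, fell by 0.92 on the log2 scale (adjusted p = 4.22e-07), and its relative RHBDF1 rose by 0.39 (adjusted p = 0.000126). The fall of the low-count gene RHBDL2, a rhomboid protease, by 0.74 (adjusted p = 0.0447) was not kept by DESeq2 (adjusted p = 0.16) or with the replicate block. It was kept in 1 of the 6 fits without 1 library. The difference between the knockdowns was called for 5 of the 8, against 53.1% of all genes, and not for ADAM12, FRMD8 and RHBDL2. ADAM10 gave 0.92 (adjusted p = 1.05e-08), ADAM17 0.33 (adjusted p = 0.0027) and RHBDF2 -0.93 (adjusted p = 4.23e-07). The list's medians were 0.04 and -0.02.

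Of 29 adaptor and kinase genes below the receptors, all tested, NONO knockdown raised 5 and lowered 4, with a median of 0.06, where 33.4% of all genes were called. PIK3CB, a catalytic subunit of phosphoinositide 3-kinase, fell by 0.73, PLCG1, a phospholipase, fell by 0.35, and the transcription factor gene STAT3 rose by 0.46. Without NC replicate 1, 15 of the 29 were called in place of 9. The share of all genes called in that fit is not given here, so the 15 cannot be set against it. PKM2 knockdown raised 9 and lowered 13, with a median of -0.12, where 68.4% of all genes were called. The docking protein gene GAB2 fell by 2.3, the Ras exchange factor gene SOS1 by 1.67 and the Raf kinase gene ARAF by 1.31 on the log2 scale.

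Of 17 genes of receptor turnover and inhibition 16 were tested, and the ubiquitin ligase gene CBLC was at 0 in every library. NONO knockdown raised 0 and lowered 4 (of all genes 16.2% were raised and 17.2% lowered). The 4 include SOCS5 at -0.62 and LRIG1 at -0.28, which encode negative regulators of EGFR, and LRIG3 at -0.3. The LRIG3 call was lost in 5 of the 6 fits without 1 library, where adjusted p reached 0.0872. PKM2 knockdown raised 9 and lowered 6 (of all genes 33.6% and 34.7%), with medians of 0.24 here and -0.06 after NONO knockdown. LRIG3 rose by 1.27 and the endosomal sorting gene STAM by 0.87, and the ubiquitin ligase gene CBLB fell by 0.91. The LRIG3 difference between the knockdowns was 1.56 (adjusted p = 5.97e-08).

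Genes that respond to ERK signalling, a main output of these receptors, did not move as one. Of 15, all tested, NONO knockdown raised 3 and lowered 2 (median 0.06), where 33.4% of all genes were called. IER3 at 0.62 and DUSP4 at 0.43 were raised and the cyclin gene CCND1 at -0.42 was lowered. NC replicate 1 stood apart in all 3, and without it the values were 0.47, 0.35 and -0.32, each still called. PKM2 knockdown raised 9 and lowered 3 (median 0.17), where 68.4% of all genes were called. FOSL1, which encodes an AP-1 subunit, fell from 650, 636 and 647 CPM to 143, 140 and 145 CPM, a log2 change of -2.17 (adjusted p = 3.75e-11). EGR1, an immediate early transcription factor gene, stood at 3.96, 29.1 and 5.89 CPM in NC and 2.32, 1.25 and 1.7 CPM in PKM2-KD libraries; its log2 change of -2.86 was -1.48 without NC replicate 2 (adjusted p = 0.000794). SPRED1, an inhibitor of the pathway, rose by 1.07.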

How the data were processed

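The authors deposited 1 gene table per knockdown, which holds an estimated count and a TPM value for every gene in every library. The submitters' processing notes name fastp, HISAT2, StringTie, RSEM, DESeq2, edgeR and limma without roles and the build hg19, yet 96.5 and 96.3% of the deposited gene identifiers are in GENCODE 29 (GRCh38), so coordinates here only locate the genes. Libraries were poly(A)-selected and paired-end, and strand is not stated. The tables also hold the authors' own fold changes and p-values, which were not used. Column names repeat between the tables (NC, KD), and columns were assigned by the experiment of their table. Counts were rounded, filtered by filterByExpr defaults, scaled by TMM and tested in edgeR 4.0.16 (glmQLFit, glmQLFTest; R 4.3.3) with Benjamini-Hochberg adjustment. Groups followed the sample titles. CPM used TMM-scaled library sizes. Alternatives were relative log expression factors, no filter, DESeq2 1.42.0, limma 3.58.1 on log2(TPM + 1) or log2(TPM + 0.1) for genes with a mean of at least 1 TPM, a replicate block, a correction for the trend with length and GC content, the fold cutoff of 2 that the study states, and each library left out. Tested on simulated counts in which 200 genes were changed 4-fold, edgeR recovered 190 in the NONO design (14832 genes), 193 in the PKM2 design (15524 genes) and 166 for the difference (15995 genes), with 17, 15 and 9 false calls; these planted changes exceed every family change given here. The simulation also changed a far smaller share of genes than the 33.4, 68.4 and 53.1% called in the data. It therefore does not show how the tests behave at such shares. The family, the pathway lists and the tests were chosen with earlier results of these data known. The named list genes were the 3 called genes of each list with the largest absolute change. List counts without each library, and the named list genes under DESeq2, the replicate block and without each library, were added after the data were seen, and ERBB4 and CBLC were named then as well.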

Additional observations from a re-analysis of the deposited data

Results flagged for a closer look

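The change after PKM2 knockdown differed from the change after NONO knockdown for 4 of the 8 family genes tested. EREG was among the 8 and was not called. The test was that of the difference itself in 1 edgeR quasi-likelihood fit over all 12 libraries. TGFA differed by 1.74 on the log2 scale (adjusted p = 3.24e-06), with libraries above NC in 3 of 3 after PKM2 knockdown and overlapping with NC after NONO knockdown. ERBB2 differed by -0.75 (adjusted p = 7.74e-08) and HBEGF by -0.72 (adjusted p = 1.99e-05), and in CPM both were below the NC range in 3 of 3 libraries of each knockdown. ERBB3 differed by -1.16 (adjusted p = 0.00123) in counts, and limma on log2(TPM + 1) did not call this difference (-0.36, adjusted p = 0.393). The share of all genes called in this fit was 53.1%.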

How the results depend on the processing

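No alternative turned the direction of a called gene of the family. Genes called after NONO knockdown numbered 4, 2 under DESeq2, 1 with a fold above 2 and unadjusted p below 0.05, and 2 to 5 without 1 library, with 5 without NC replicate 1. After PKM2 knockdown they numbered 7, 6 under DESeq2, 4 with the fold cutoff and 6 to 7 without 1 library, with EREG included each time. Under limma on log2(TPM + 1), where EREG was not tested, they numbered 5. For the difference they numbered 4, and 4 to 5 without 1 library. EGFR and AREG were called after NONO knockdown, and ERBB2, AREG, HBEGF and TGFA after PKM2 knockdown, under every count and TPM test at an adjusted p below 0.05; with the fold cutoff of 2, EGFR, ERBB2 and HBEGF were not. With the replicate block in edgeR the calls were 3, 7 and 5 (all genes: 4351, 10525 and 8239 against 4954, 10614 and 8497), ERBB3 after NONO knockdown having an adjusted p of 0.0679 and the EGFR difference one of 0.0293. Same-numbered libraries deviated with correlations of -0.07 to 0.04, not every library went best with its own number, and the numbers were not taken as pairs. The EGFR difference was also called under relative log expression factors (0.28, adjusted p = 0.0351), no filter (0.25, 0.0033), DESeq2 (0.28, 0.0249) and without NC replicate 2 of the NONO experiment (0.3, 0.041). EGFR after PKM2 knockdown was called without the filter (-0.13, adjusted p = 0.0335), and NRG1 then was not (0.0564). The EREG difference was called without NC replicate 3 of the NONO experiment (1.81, 0.0464) or PKM2-KD replicate 1 (1.82, 0.0315). EREG entered these fits only through the PKM2-KD libraries in which it was high, so these calls add nothing.

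Shedding genes called after PKM2 knockdown numbered 5, 3 without the filter or under DESeq2, and 3 to 5 without 1 library (3 without NC replicate 1 or 3 or PKM2-KD replicate 1 or 2). The other family genes called there numbered 1, 2 without the filter or under DESeq2, and 1 to 2 without 1 library (2 without PKM2-KD replicate 1 or 2). After NONO knockdown the adaptor and kinase genes called numbered 9, and 7 to 15 without 1 library. ERK-responsive genes numbered 5, 8 without the filter, and 3 to 7 without 1 library, with 3 without NONO-KD replicate 1. All genes called after NONO knockdown, after PKM2 knockdown and for the difference numbered 4232, 10022 and 8167 under DESeq2. By limma on TPM they numbered 2645, 8387 and 6438. No such count is given here for fits without the filter or without 1 library. The list counts from those fits therefore have no share of all genes beside them. The cause of these shifts was not tested. Depth limits EREG, BTC and EPGN most.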

Other observations

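The trend of the log2 change with transcript length and GC content at the gene was -0.17 for ERBB2, -0.18 for ERBB3 and 0.19 for EREG in the PKM2 comparison, and between -0.03 and 0.01 for the 7 genes tested in the NONO comparison. PKM stood at 2600, 2630 and 2580 CPM after NONO knockdown against 2190, 2160 and 2180 in NC, a log2 change of 0.26 (edgeR's quasi-likelihood test, adjusted p = 0.000122), and NONO rose by 0.3 after PKM2 knockdown (adjusted p = 7.54e-05). The length that the tables list for ERBB3 also differed, at 5919 bases in the NONO table and 5615 in the PKM2 table, while the other 9 genes had the same length in both.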
